A study of Mus musculus with 15 samples.

Results

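Of the 19937 mouse genes with a probe set of their own on the arrays, 122 (0.612%) had their mean signal in 4T1 cells carrying Twist1 S42A at least 1 log2 below the means of both the cells carrying wild-type Twist1 and the cells carrying Twist1 S42D. A gene was read by its brightest probe set with 1 gene symbol. Of the 129 genes that passed, 7 had been set aside by name (Aldoc, Cd53, Cdh1, Cxcl16, Hsd17b11, Krt19 and Mmp9), and Inhba and the collagens, also set aside, did not pass. The values on the 9 arrays of these 3 lines chose the genes, so every difference between the 3 lines is a description here and carries no test. The distance below the nearer of the 2 other lines is called the gap. It is given in log2 units, where 1 is a 2-fold difference in signal.

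Twist1 is a basic helix-loop-helix transcription factor that pairs with E proteins, binds the E-box (CANNTG) and drives epithelial cells toward a mesenchymal state. The kinase Akt can phosphorylate it at serine 42. Alanine at that position cannot take a phosphate, and aspartate carries a negative charge like that of a phosphate.

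Transcript levels were read on 15 arrays, 3 for each of 5 lines of 4T1, a metastatic mouse mammary carcinoma line. The lines were parental 4T1, 4T1 depleted of endogenous Twist1 (Tw1KD), and Tw1KD cells with compensatory expression of wild-type Twist1, of Twist1 S42A or of Twist1 S42D. So the 3 re-expressing lines all carry the depletion. For the S42D samples the genotype label gives A and D together, and their identity here rests on the sample title. Per the labels, cells of every line reached 70% confluency in DMEM that held G418 at 800 µg/ml and puromycin at 4 µg/ml; no separate medium is named for parental cells. The means of depletion and re-expression, and whether a line was 1 clone or a pool, are not given in the sources used here. Each construct was read in 1 line, so an effect of the substitution and a property of that line cannot be told apart. The depletion was likewise read in 1 line, so an effect of Twist1 loss and a property of Tw1KD cells cannot be told apart. Rises and falls on depletion, as given below, are differences between Tw1KD and parental cells. The labels do not say that replicates were separate cultures, so p-values measure only the spread between these arrays. Errors after ± are standard deviations (SD) for levels and standard errors (SE) for differences, with n = 3 arrays per line.

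Twist1 itself read 9.01, 9.03 and 9.07 (log2 intensity) in parental cells and 7.47, 7.23 and 7.35 in Tw1KD cells. The fall was 1.69 ± 0.080 (limma, adjusted p = 7.1e-10). It read 8.16 to 8.49 with wild-type Twist1, 8.60 to 8.80 with S42A and 8.96 to 9.07 with S42D, and whether the probe set also reads the constructs is not known. The epithelial keratins Krt8 and Krt18 were bright in all 5 lines (means of 12.3 to 13.2). Epcam, an epithelial adhesion protein, was 8.36 in parental and 9.76 in Tw1KD cells but 5.55 to 5.66 in the 3 re-expressing lines, just above the bound of the dimmest 25% of group means (5.50). A low signal on an array cannot separate a dim transcript from background.

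The gap had a median of 1.41 and ran from 1.01 to 4.34, that is from about 2-fold to 20.2-fold in signal. The largest belongs to Bckdhb, whose S42A mean of 5.55 lay near the bound of the dimmest 25% (5.50), so its fold is one of signal and is read as a lower bound for the transcript. It was under 1.5 for 67 members, at least 2 for 27 and at least 3 for 6. All 122 members had their 3 S42A arrays below every wild-type Twist1 and S42D array, as 9.39% of all genes did; the choice of members all but sets this share. The median level of the members was 6.87 in S42A, against 8.75 with wild-type Twist1, 9.22 with S42D, 8.71 in Tw1KD and 8.88 in parental cells, whereas the median of all genes lay between 7.20 and 7.30 in every line. Of the members, 7 had an S42A mean (5.74%) and 9 a Tw1KD mean (7.38%) in the dimmest 25% of group means, as did 24.7% of all genes in each of these lines. The spread within a line was like that of other genes (median SD 0.093 for members, 0.086 for all genes). The same rule, with no gene set aside, gave 152 genes with wild-type Twist1 lowest, 65 with S42D lowest and 86 with S42A highest. Low extremes of this size were thus found for each of the 3 re-expressing lines. Closest to the threshold inside it were S100a16 and Nckap1l (both 1.01) and Tmem62 (1.02); closest outside were Dll1, Tnfrsf9 and Kif26b (all 0.99).

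**Figure D1:**
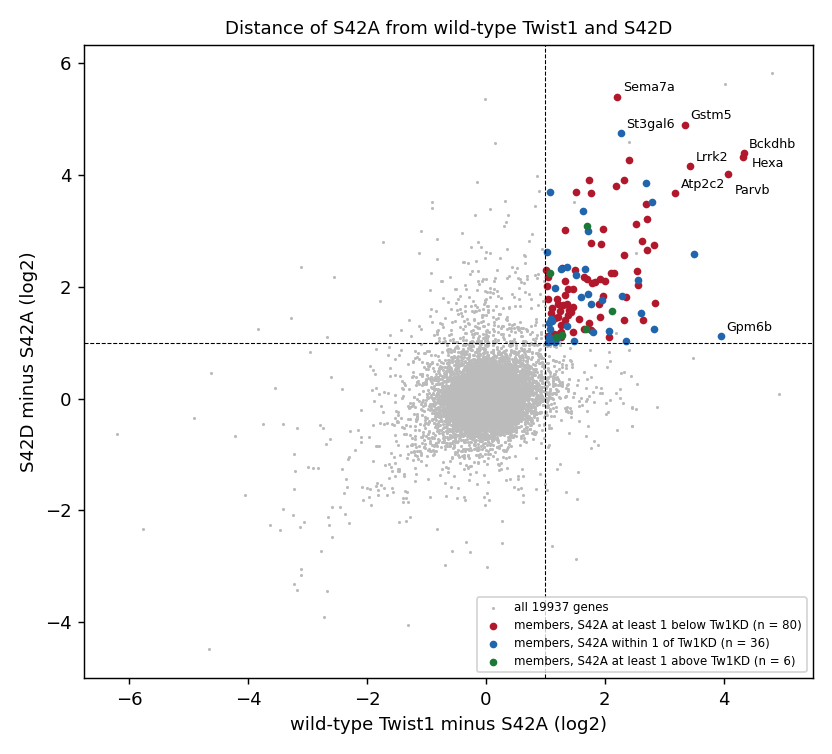
Each point is a gene, with the wild-type Twist1 mean minus the S42A mean on the x axis and the S42D mean minus the S42A mean on the y axis (both log2); dashed lines mark 1. The 122 members fill the upper right corner by the rule that chose them and are coloured by how S42A compares with Tw1KD; Bckdhb, Hexa and Parvb lie at 4 or more on both axes, and Gpm6b is far from wild-type Twist1 but only 1.12 from S42D.

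The members differed in where S42A stood against the 2 lines outside the rule, parental and Tw1KD. They were grouped by cutting a continuous difference at 1, so genes near the cut are alike. Tw1KD minus S42A was 0.94 for Slc9a3r2 and 1.05 for Egr1, which fall on either side of it. In 80 members (65.6%, against 2.39% of all genes) S42A was at least 1 below Tw1KD, the line it was made from. In 36 it was within 1 of Tw1KD, and in 6 (4.92%, against 2.45%) it was at least 1 above it. For 68 members (55.7%, against 1.07% of all genes) S42A was at least 1 below both Tw1KD and parental cells. In 97 members (79.5%, against 13.1% of all genes) S42A had the lowest mean of the 5 lines, and in 89 (73%, against 4.66%) its 3 arrays lay below all 12 others. These shares use arrays of the rule and are read as description. S42D had the highest mean of the 5 lines in 42 members, Tw1KD in 31, wild-type Twist1 in 26 and parental in 23. These counts use arrays of the rule too, and their shares over all genes were not worked out.

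**Figure D2:**
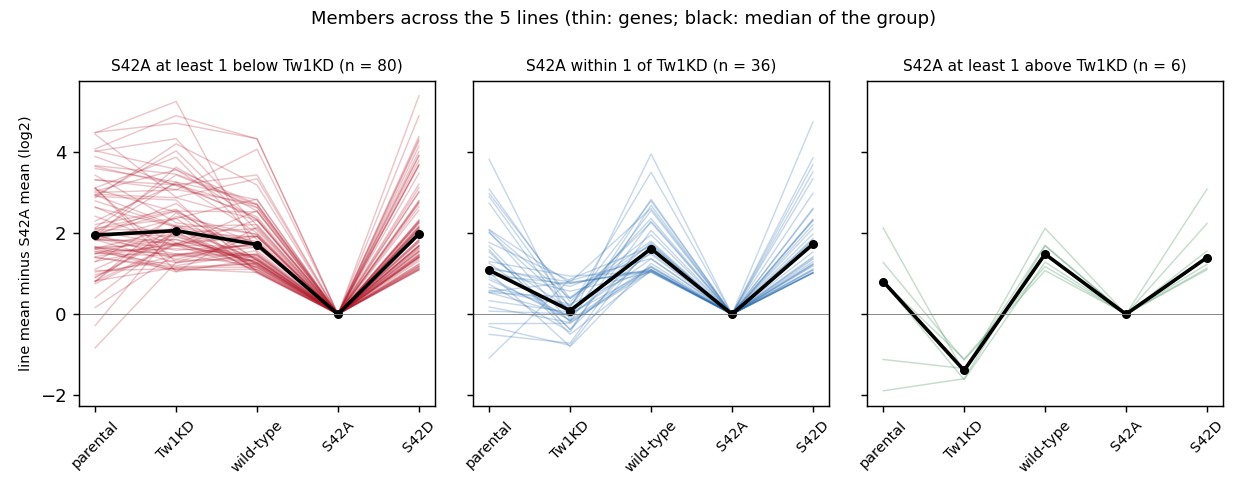
Mean of each line minus the S42A mean (log2) for the members with S42A at least 1 below Tw1KD (80 genes), within 1 of Tw1KD (36) and at least 1 above it (6); thin lines are genes, black lines are medians. In the 80 genes the 4 other lines stay together on the median, in the 36 Tw1KD drops to the level of S42A, and in the 6 Tw1KD is the lowest line; S42A is at 0 by construction.

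Tw1KD against parental cells was the only comparison that the choice of members did not use. Between Tw1KD and parental cells 100 of the 122 members were called by limma's moderated test at an adjusted p under 0.05 (82%, against 36.3% of all genes). Of these, 61 fell (50%, against 16.4%) and 39 rose (32%, against 19.9%). Falls of at least 1 numbered 25 (20.5%, against 1.62%) and rises of at least 1 numbered 15 (12.3%, against 1.03%). The median difference was -0.21 over the members and 0.0051 over all genes, and the median absolute difference was 0.56 and 0.12. In 101 members the 3 Tw1KD and 3 parental arrays did not overlap (82.8%, against 41.6%). The members therefore moved more than the array as a whole, in both directions. Called falls outnumbered called rises among them while the reverse held for all genes. But members are less often dim: 7.38% had a Tw1KD mean in the dimmest 25% of group means, against 24.7% of all genes. With the dimmest 25% of genes left out, 4020 of the remaining genes rose and 3285 fell, and 40 and 62 members. That is more calls among fewer genes, so the shares called over all genes, here and below, understate those of brighter genes. Of the 25 members that fell by at least 1, wild-type Twist1 was at least 1 above Tw1KD in 21, S42D in 22 and S42A in 4. Among all 323 genes that fell this far the counts were 132, 205 and 147. The rule favours genes high in wild-type Twist1 and S42D and low in S42A, so the first set of counts is shaped by it. Of the 15 members that rose by at least 1, S42A was at least 1 below Tw1KD in 14, wild-type Twist1 in 6 and S42D in 4. Among all 206 genes that rose this far the counts were 145, 120 and 124, and the rule shapes the members' counts here too.

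**Figure D3:**
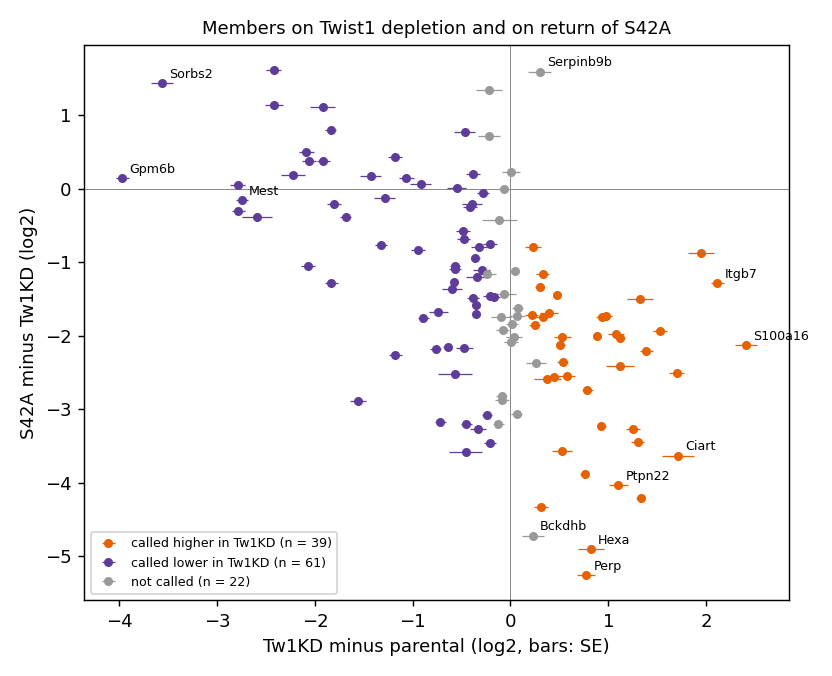
Difference between Tw1KD and parental cells (x axis, log2, bars are SE) and between S42A and Tw1KD cells (y axis, log2) for the 122 members, coloured by the limma call on the x axis. Called falls (61) and rises (39) reach -3.97 (Gpm6b) and 2.41 (S100a16); Tw1KD enters both axes with opposite sign, so the downward slope is partly built in.

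In 41 members the means of the 4 other lines lay within 1 of each other (33.6%, against 89.3% of all genes), a limit set on a continuous range. Smaller differences remained among them: on depletion 14 rose, 16 fell and 11 were not called. Over all members 32% rose and 50% fell, and over all genes 19.9% and 16.4%. In 34 of the 41, S42A was at least 1 below all 4 other lines. Of the 41, 8 had a gap of at least 2, namely Bckdhb, Hexa, Lrrk2, Rem2, Slc18b1, Dhx40, Bmp7 and Etl4. Several others, such as Gpm6b, Samsn1 and Ibsp, were instead low in Tw1KD and S42A alike. Gpm6b was low in S42D as well, at 7.39 against 10.10 in parental cells and 10.23 with wild-type Twist1. To show the DNA upstream of members with S42A far below all other lines and of members low in both, the 250 bases before the start of 6 members are printed from the RefSeq promoter table (GRCm38.p6), on the gene's strand, with each E-box (CANNTG, which reads the same on both strands) in capitals. Hexa (chr9:59539290-59539539), Parvb (chr15:84231793-84232042) and Lrrk2 (chr15:91672974-91673223) stand for members with S42A at least 3 below each of the 4 other lines. Ibsp (chr5:104299037-104299286), Samsn1 (chr16:75909267-75909516, minus strand) and Gpm6b (chrX:166238693-166238942) stand for those low in Tw1KD and S42A.
Hexa: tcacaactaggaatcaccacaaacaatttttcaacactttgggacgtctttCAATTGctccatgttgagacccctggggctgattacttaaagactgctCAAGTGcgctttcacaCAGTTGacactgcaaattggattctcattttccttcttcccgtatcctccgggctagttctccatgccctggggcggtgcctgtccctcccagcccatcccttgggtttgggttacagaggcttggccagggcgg
Parvb: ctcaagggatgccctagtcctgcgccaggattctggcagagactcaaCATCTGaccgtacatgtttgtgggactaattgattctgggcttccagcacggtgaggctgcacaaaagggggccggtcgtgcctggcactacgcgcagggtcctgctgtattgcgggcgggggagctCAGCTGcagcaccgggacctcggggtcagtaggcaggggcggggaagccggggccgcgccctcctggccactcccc
Lrrk2: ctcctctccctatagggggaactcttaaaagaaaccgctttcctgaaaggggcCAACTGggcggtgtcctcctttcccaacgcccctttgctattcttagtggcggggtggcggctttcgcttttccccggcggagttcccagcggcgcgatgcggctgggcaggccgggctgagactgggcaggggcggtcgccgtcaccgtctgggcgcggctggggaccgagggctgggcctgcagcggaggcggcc
Ibsp: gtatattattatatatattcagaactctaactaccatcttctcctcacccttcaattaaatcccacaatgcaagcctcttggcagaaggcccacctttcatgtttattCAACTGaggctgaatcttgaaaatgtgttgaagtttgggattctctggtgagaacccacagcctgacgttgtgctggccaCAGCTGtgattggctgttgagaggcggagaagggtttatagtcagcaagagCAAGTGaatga
Samsn1: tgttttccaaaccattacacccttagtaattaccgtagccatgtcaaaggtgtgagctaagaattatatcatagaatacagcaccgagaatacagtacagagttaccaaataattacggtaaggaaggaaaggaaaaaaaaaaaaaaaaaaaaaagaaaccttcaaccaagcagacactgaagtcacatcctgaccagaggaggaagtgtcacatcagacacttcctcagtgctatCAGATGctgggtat
Gpm6b: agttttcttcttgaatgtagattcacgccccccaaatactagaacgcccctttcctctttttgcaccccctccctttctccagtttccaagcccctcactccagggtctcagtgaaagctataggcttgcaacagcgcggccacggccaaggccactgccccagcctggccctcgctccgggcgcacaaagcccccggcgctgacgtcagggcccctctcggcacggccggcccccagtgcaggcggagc

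These windows held 3, 2 and 1 E-boxes for Hexa, Parvb and Lrrk2 and 3, 1 and 0 for Ibsp, Samsn1 and Gpm6b. The form CATCTG or its reverse complement CAGATG was present upstream of Parvb and Samsn1, and CAGCTG upstream of Parvb and Ibsp. The table matched 85 of the 122 members and 15613 of all genes. An E-box was present in at least 1 listed window of 63 matched members (74.1%) and of 65.8% of matched genes. CATCTG or CAGATG, which is 1 form of the E-box, was found for 13 members (15.3%, against 13.8%), CATATG for 3 (3.53%, against 2.93%), CAGCTG for 20 (23.5%, against 14.5%) and CACCTG or CAGGTG for 22 (25.9%, against 19.3%). Counted over single windows (110 of members, 32851 in all), the shares were 69.1% against 66.2% for CANNTG, 13.6% against 14.4% for CATCTG or CAGATG, 2.73% against 3.46% for CATATG, 18.2% against 13% for CAGCTG and 20.9% against 17.2% for CACCTG or CAGGTG. The order of members and all genes thus turned for CATCTG or CAGATG and for CATATG. A match is a stretch of letters in a window and not a measured site.

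Metabolic and mitochondrial enzymes, 15 members, held the largest gap. Bckdhb encodes the beta subunit of the branched-chain keto acid dehydrogenase, which breaks down leucine, isoleucine and valine. It read 10.02, 9.91 and 10.19 in parental cells, 10.31, 10.17 and 10.32 in Tw1KD, 9.83, 9.92 and 9.91 with wild-type Twist1, 5.83, 5.57 and 5.25 with S42A and 9.90, 9.90 and 10.03 with S42D. The S42A arrays stood alone, far below the 12 others, and S42A was 4.72 ± 0.11 below Tw1KD. Its Tw1KD arrays overlapped those of parental cells, with a difference of 0.23 ± 0.11 (limma, adjusted p = 0.15); with arrays weighted by quality the adjusted p was 0.025.

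Gstm5, a glutathione transferase, read 8.97, 8.93 and 8.98 in parental cells, 7.46, 7.27 and 7.48 in Tw1KD, 7.90, 7.90 and 7.79 with wild-type Twist1, 4.53, 4.68 and 4.34 with S42A and 9.45, 9.30 and 9.49 with S42D. It fell on depletion by 1.56 ± 0.081 (limma, adjusted p = 2.0e-09), was lower still in S42A and was highest in S42D. Near-identical Gstm genes can share probes, so its identity is uncertain. Cmbl, a hydrolase, had S42A arrays of 5.47, 5.44 and 6.30 against 8.01 to 8.35 in the other re-expressing lines. Its fall on depletion of 0.46 ± 0.17 (limma, adjusted p = 0.045) did not pass when any of the 6 arrays compared was left out (adjusted p from 0.056 to 0.15). Median centring (limma, adjusted p = 0.062) and array weights (0.060) also lost the call.

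The retinoid genes Rdh10, which oxidises retinol, and Rbp2, which binds it, moved apart on depletion. Rdh10 rose, with parental arrays at 10.73 to 10.75 and Tw1KD arrays at 11.66 to 11.67. Rbp2 fell, with parental arrays at 8.63 to 8.75 and Tw1KD arrays at 7.27 to 7.46. Acsbg1, an acyl-CoA synthetase, rose by 1.30 ± 0.064, and Gsto2, a glutathione transferase, by 1.08 ± 0.081. Both then lay lowest in S42A. Hacd4, an enzyme of very-long-chain fatty acid synthesis, fell by 2.22 ± 0.13 and read 4.71 to 5.15 in S42A, near its Tw1KD values of 4.51 to 5.01. Ptgr1, Ogdhl and Coa3 also fell and Sdr39u1 rose by 0.22. The calls of Coa3 and Sdr39u1 were lost without parental replicate 3. That of Coa3 was also lost without Tw1KD replicate 2, and that of Sdr39u1 without Tw1KD replicate 1 or 3. Coa3 did not pass either after median centring (limma, adjusted p = 0.0501) or with the 2 compared lines fitted alone (0.086). G6pc3, Nt5e and Mid1ip1 were not called. Nt5e, the surface enzyme that makes adenosine from AMP, was bright throughout, at 10.71 to 10.82 in S42A and 11.76 to 12.82 elsewhere.

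Lysosomal and glycan enzymes, 7 members, had the highest median gap of any role (1.94). Each was called on depletion, as were 82% of all members and 36.3% of all genes. Hexa, the alpha subunit of the lysosomal hexosaminidase that degrades GM2 ganglioside, read 9.76, 9.81 and 9.82 in parental cells, 10.68, 10.58 and 10.60 in Tw1KD, 10.01, 10.08 and 10.03 with wild-type Twist1, 6.16, 5.46 and 5.52 with S42A and 10.05, 9.95 and 10.11 with S42D. The S42A arrays were again far below the rest, by 4.90 ± 0.13 from Tw1KD. Hexa was 0.82 ± 0.13 higher in Tw1KD than in parental cells (limma, adjusted p = 0.00014).

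St3gal6, a sialyltransferase, followed another course. It read 9.37, 9.36 and 9.43 in parental cells, 6.48, 6.72 and 6.60 in Tw1KD, 8.54, 8.59 and 8.57 with wild-type Twist1, 6.30, 6.43 and 6.16 with S42A and 11.06, 11.03 and 11.05 with S42D. It fell on depletion by 2.79 ± 0.067 (limma, adjusted p = 7.4e-13), and S42A stayed within 1 of Tw1KD. Gcnt1, an enzyme that branches O-glycans, likewise fell by 1.43 ± 0.11 and read 5.36 to 5.87 in S42A, overlapping Tw1KD at 5.42 to 5.52. Cpq, a secreted carboxypeptidase, and Man1c1, a Golgi mannosidase, fell by less than 1 and were at least 1 lower still in S42A. Mgat4a, which branches N-glycans, rose by 1.33 ± 0.13, and Pgap1, which remodels GPI anchors, by 0.89 ± 0.041.

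**Figure D4:**
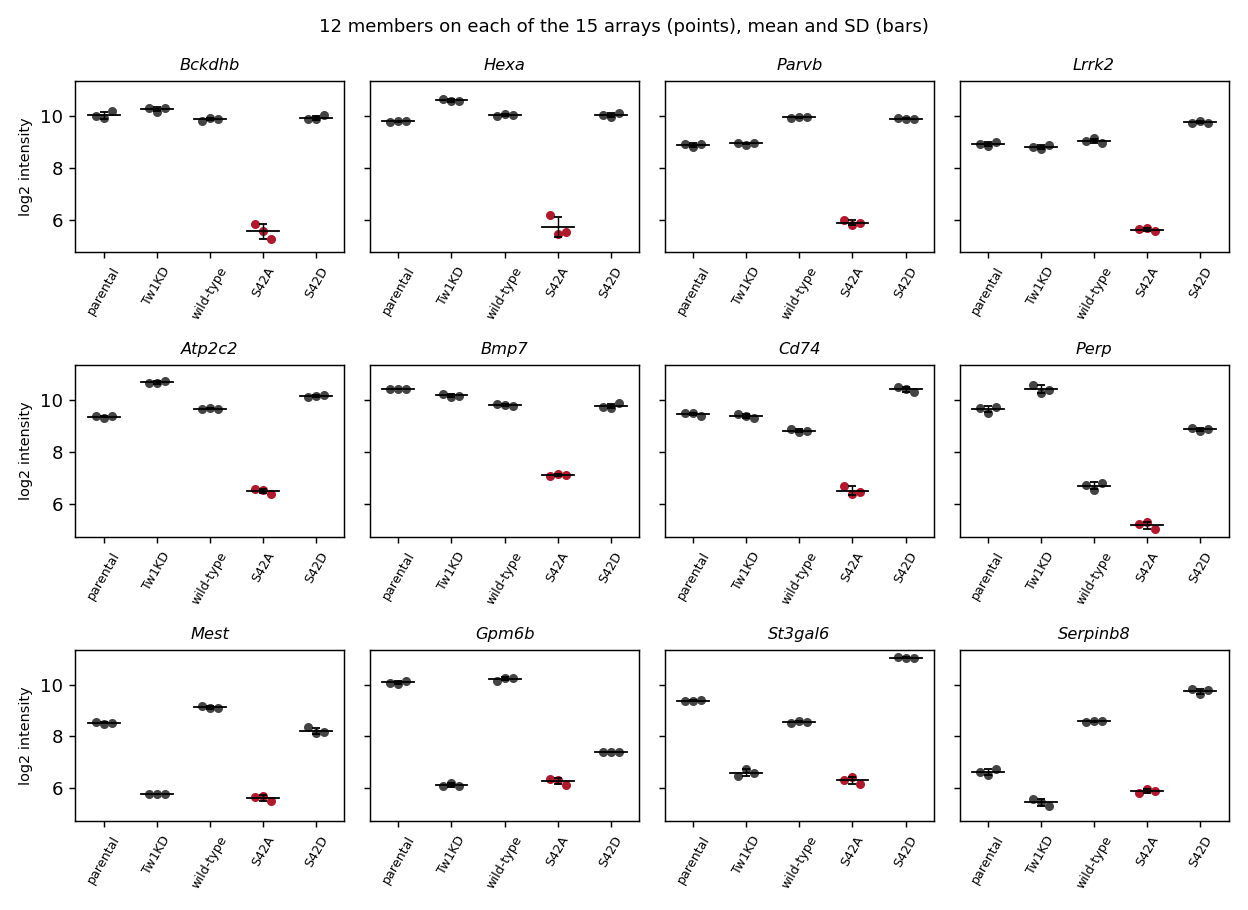
Log2 intensity on each of the 15 arrays (points) with the mean and SD (bars) of each line for 12 members. Bckdhb, Hexa, Parvb, Lrrk2, Atp2c2 and Bmp7 are low in S42A only, whereas Mest, Gpm6b, St3gal6 and Serpinb8 are low in Tw1KD too. Gpm6b is also low in S42D (7.39, against 10.10 in parental cells). Serpinb8 is also low in parental cells (6.63, against 8.58 with wild-type Twist1 and 9.75 with S42D). Perp is also low with wild-type Twist1, and Cd74 is highest in S42D.

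Adhesion, cytoskeleton and epithelial genes were the largest role, with 18 members, of which 8 rose and 6 fell on depletion. Over all members 32% rose and 50% fell, and over all genes 19.9% and 16.4%. Parvb encodes beta-parvin, which links integrins to actin through integrin-linked kinase. It read 8.91, 8.81 and 8.93 in parental cells, 8.96, 8.90 and 8.97 in Tw1KD, 9.93, 9.96 and 9.96 with wild-type Twist1, 5.99, 5.78 and 5.85 with S42A and 9.92, 9.89 and 9.88 with S42D. Wild-type Twist1 and S42D lay about 1 above Tw1KD, and S42A 3.07 ± 0.051 below it. Parental and Tw1KD arrays overlapped (limma, adjusted p = 0.42).

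Perp, a desmosome and p53 effector protein, read 9.71, 9.53 and 9.73 in parental cells, 10.59, 10.29 and 10.41 in Tw1KD, 6.74, 6.55 and 6.80 with wild-type Twist1, 5.20, 5.30 and 5.03 with S42A and 8.94, 8.81 and 8.89 with S42D. All 3 re-expressing lines lay below Tw1KD, S42A by most (5.25 ± 0.091). Grhl2, a transcription factor that maintains epithelial identity, read 5.84 to 6.15 in S42A and 7.34 to 8.09 elsewhere, and rose on depletion by 0.53 ± 0.086. Lsr, a protein of tricellular junctions, read 7.06 to 7.30 in S42A and 8.16 to 8.31 with wild-type Twist1 and was not called on depletion. Plet1, an epithelial surface protein, was bright in every line, at 10.54 to 10.57 in S42A and 12.10 to 12.73 elsewhere.

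Integrins split on depletion. Itgb7, a beta chain of leukocyte integrins, rose by 2.11 ± 0.067 (limma, adjusted p = 1.2e-11), with parental arrays at 7.22 to 7.47 and Tw1KD arrays at 9.40 to 9.53, and its S42A arrays of 8.11 to 8.25 stayed above parental cells. Itga7, a laminin-binding alpha chain, fell by 0.48 ± 0.070 and was highest in S42D at 9.41 to 9.56. Sorbs2, an actin-linked adaptor, read 9.12, 9.01 and 9.18 in parental cells, 5.64, 5.76 and 5.20 in Tw1KD, 9.15, 9.06 and 9.07 with wild-type Twist1, 6.83, 7.01 and 7.07 with S42A and 8.61, 8.55 and 8.44 with S42D. It fell by 3.57 ± 0.11 (limma, adjusted p = 1.2e-11), and S42A lay between Tw1KD and the 3 other lines, without overlap. Pcdhb21, a protocadherin of a family with near-identical members, fell by 1.92 ± 0.13 and also lay between.

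Among the remaining genes of this role, Afap1l2 and Crip2 fell, and Mall, Add2, Arhgef3, Pstpip2 and Dmtn rose. Add2, a spectrin-binding adducin, rose by 1.39 ± 0.069, and Pstpip2, an actin-bundling F-BAR protein, by 1.53 ± 0.071. Arhgap8 and Nckap1l were not called. Nckap1l, a Scar/WAVE subunit of blood cells, was dim in parental cells, Tw1KD and S42A (6.13 to 6.65) and brighter with wild-type Twist1 and S42D (7.51 to 7.76).

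The role labelled secreted ligands, 7 members, also holds ligands bound to the membrane, such as Sema7a and Dll4. All 7 lay at least 1 lower in S42A than in Tw1KD, as did 65.6% of all members and 2.39% of all genes. Bmp7, a bone morphogenetic protein, read 10.45, 10.44 and 10.44 in parental cells, 10.27, 10.15 and 10.19 in Tw1KD, 9.87, 9.84 and 9.80 with wild-type Twist1, 7.08, 7.17 and 7.12 with S42A and 9.75, 9.72 and 9.88 with S42D. It fell slightly on depletion, by 0.24 ± 0.049 (limma, adjusted p = 0.0011), and S42A was 3.08 ± 0.049 below Tw1KD. Sema7a, a membrane-anchored semaphorin, read 9.11 to 9.27 in parental cells, 8.54 to 8.83 in Tw1KD, 8.73 to 8.79 with wild-type Twist1, 6.40 to 6.75 with S42A and 11.91 to 11.97 with S42D. The 2 substitutions thus lay on opposite sides of wild-type Twist1 without overlap, S42D by 3.18 ± 0.086. Il23a, a cytokine subunit, rose on depletion by 0.44 ± 0.056, Erfe, the iron hormone erythroferrone, by 0.30 ± 0.042, and Dll4, a Notch ligand, by 0.94 ± 0.063. Artn, a GDNF-family ligand, fell by 0.21 ± 0.074 (limma, adjusted p = 0.043). The call was lost when any array but Tw1KD replicate 3 was left out (adjusted p from 0.060 to 0.12). It was also lost after median centring (limma, adjusted p = 0.14) and with a replicate block (0.059). Dhh, a hedgehog ligand, was not called.

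Receptors and surface immune proteins, 15 members, fell on depletion in 8 cases and rose in 2. Falls made up 50% of all members and 16.4% of all genes, and rises 32% and 19.9%. Pdgfrb, the beta receptor for platelet-derived growth factor, read 8.48, 8.41 and 8.46 in parental cells, 6.39, 6.55 and 6.15 in Tw1KD, 7.95, 7.93 and 7.93 with wild-type Twist1, 6.90, 6.89 and 6.79 with S42A and 10.49, 10.58 and 10.59 with S42D. It fell by 2.09 ± 0.076 (limma, adjusted p = 4.5e-11), and the re-expressing lines stood in the order S42A, wild-type Twist1, S42D with no overlap. Mertk, a receptor tyrosine kinase for dying cells, fell by 2.42 ± 0.079 and read 8.04 to 8.35 in S42A, between Tw1KD (6.38 to 6.65) and the other lines (8.96 to 9.48). Htr5b, a serotonin receptor, fell by 1.92 ± 0.065, and Plxna4, a semaphorin co-receptor, by 1.29 ± 0.10; in both S42A was within 1 of Tw1KD. Ramp1, a partner of the CGRP receptor, fell by 1.18 ± 0.071, and Lgr6, an R-spondin receptor, by 0.58 ± 0.035. Sorcs2, a neurotrophin co-receptor, rose by 1.70 ± 0.079, and Il1rap, the shared chain of IL-1 family receptors, by 0.97 ± 0.066.

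Several of these genes are best known from leukocytes. Cd74, the invariant chain of MHC class II, read 9.51, 9.50 and 9.42 in parental cells, 9.46, 9.40 and 9.32 in Tw1KD, 8.89, 8.80 and 8.83 with wild-type Twist1, 6.71, 6.39 and 6.45 with S42A and 10.52, 10.43 and 10.34 with S42D. S42A was lowest and S42D highest, and depletion gave no call (limma, adjusted p = 0.45). Tlr2, a receptor for bacterial lipoproteins, was nearly level at 8.36 to 8.65 in 4 lines and read 7.22, 7.10 and 6.50 in S42A. Il2rb and Il18rap, receptor chains for cytokines, fell by 0.42 ± 0.071 and 0.28 ± 0.060 on depletion, while Vsir, an immune checkpoint protein, was not called. The pan-leukocyte gene Ptprc stayed at 5.11 to 5.23 in all 5 lines and Adgre1 at 4.69 to 4.78, both in the dimmest 25%. Of 8 measured leukocyte markers, 3 to 4 were above that level in each line, namely Cd14, Cd68 and Cd3e everywhere, Lyz2 in S42A and Csf1r in S42D. Cd68, a lysosomal protein of macrophages that other cells also make, had means of 8.50 in parental cells, 10.38 in Tw1KD, 9.80 with wild-type Twist1, 10.27 with S42A and 10.71 with S42D. Cd14 had means of 7.48 to 8.71 and Cd3e of 6.54 to 6.83. The list's median was 5.30 to 5.58 in the 5 lines; the part of other cells in these values was not tested. Grpr, a bombesin-family peptide receptor, and Olfr266, of the near-identical olfactory receptor family, were dim in parental and Tw1KD cells (4.80 to 5.73) and were not called.

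Intracellular signalling genes numbered 8, and 7 of them lay at least 1 below both Tw1KD and parental cells in S42A. So did 55.7% of all members and 1.07% of all genes. Lrrk2, a kinase mutated in familial Parkinson disease, read 8.93, 8.85 and 9.0 in parental cells, 8.81, 8.72 and 8.89 in Tw1KD, 9.04, 9.14 and 8.97 with wild-type Twist1, 5.62, 5.66 and 5.55 with S42A and 9.75, 9.81 and 9.74 with S42D. S42A was 3.19 ± 0.058 below Tw1KD, with no call on depletion (limma, adjusted p = 0.13; 0.011 after quantile normalization). A second Lrrk2 probe set, dim in all lines (4.21 to 4.68), showed a gap of only 0.15. Rem2, a small GTPase that restrains calcium channels, read 6.07, 5.91 and 5.76 in S42A and 8.61 to 9.60 elsewhere, and fell on depletion by 0.33 ± 0.081.

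Samsn1, an SH3 adaptor of lymphocytes, was the exception in this role. It read 8.79, 8.57 and 8.73 in parental cells, 5.89, 5.89 and 5.92 in Tw1KD, 7.53, 7.46 and 7.44 with wild-type Twist1, 6.08, 5.77 and 6.02 with S42A and 8.20, 8.23 and 8.06 with S42D. It fell by 2.79 ± 0.077 (limma, adjusted p = 2.8e-12), and S42A overlapped Tw1KD. Grb7, an adaptor of ErbB receptors, rose by 0.76 ± 0.048, and Ptpn22, a phosphatase of lymphocytes, by 1.10 ± 0.097; Ptpn22 read 5.15 to 5.51 in S42A, 7.44 on all wild-type Twist1 arrays and 6.34 to 6.62 in S42D. Usp11, a deubiquitinase, and Itpkb, an inositol phosphate kinase, fell, and Dmpk, the myotonic dystrophy kinase, was not called.

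Matrix proteins, proteases and their inhibitors were 10 members, of which 7 fell on depletion and 1 rose. Shares for all members were 50% and 32%, and for all genes 16.4% and 19.9%. In only 2, Fetub and Capn5, was S42A at least 1 below Tw1KD, against 65.6% of all members and 2.39% of all genes. Serpinb8, a serpin that inhibits furin-type proteases, read 6.64, 6.52 and 6.73 in parental cells, 5.58, 5.44 and 5.32 in Tw1KD, 8.54, 8.60 and 8.59 with wild-type Twist1, 5.81, 5.97 and 5.88 with S42A and 9.82, 9.64 and 9.78 with S42D. It fell by 1.18 ± 0.073 (limma, adjusted p = 1.1e-08). Wild-type Twist1 and S42D exceeded parental cells, and S42A did not.

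Plat, tissue plasminogen activator, read 9.56, 9.52 and 9.61 in parental cells, 7.30, 6.84 and 7.30 in Tw1KD, 9.36, 9.36 and 9.36 with wild-type Twist1, 8.26, 8.29 and 8.29 with S42A and 10.54, 10.53 and 10.48 with S42D. It fell by 2.41 ± 0.091 (limma, adjusted p = 7.0e-11), and S42A lay between Tw1KD and the rest. Ibsp, a bone sialoprotein that binds integrins, read 8.56 to 8.93 in parental cells, 5.79 to 6.38 in Tw1KD, 5.60 to 6.01 in S42A and 7.38 to 7.82 in the other re-expressing lines, a fall of 2.59 ± 0.15 on depletion. Matn2, a matrilin of the pericellular matrix, fell by 2.06 ± 0.076 and read 6.19 to 6.48 in S42A, just above Tw1KD (5.89 to 5.95).

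Serpinb6b fell and Serpinb9b did not pass (limma, adjusted p = 0.061, 0.0054 without parental replicate 2 and 0.045 without Tw1KD replicate 3); both belong to near-identical gene clusters, as does Mcpt8, a basophil protease. Mcpt8 read 5.01 to 5.73 in parental and Tw1KD cells, 6.53 to 6.74 in S42A, 8.31 to 8.45 with wild-type Twist1 and 9.70 to 9.79 with S42D. Its difference of -0.22 ± 0.13 on depletion did not pass, but passed without Tw1KD replicate 2 (-0.40, adjusted p = 0.012). Fetub, a protease inhibitor of the cystatin family, rose by 1.12 ± 0.14, and Capn5, a calpain, and Adamts8, a metalloprotease, fell by under 0.5.

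Transporters and channels, 8 members, included Atp2c2, a Golgi and secretory-pathway calcium pump of epithelia. It read 9.41, 9.34 and 9.39 in parental cells, 10.70, 10.66 and 10.77 in Tw1KD, 9.67, 9.71 and 9.69 with wild-type Twist1, 6.57, 6.53 and 6.40 with S42A and 10.12, 10.19 and 10.22 with S42D. It rose on depletion by 1.33 ± 0.049 (limma, adjusted p = 5.2e-11), and all 3 re-expressing lines lay below Tw1KD. Slc18b1, a polyamine transporter, rose by 0.53 ± 0.10 and read 6.22, 5.69 and 6.05 in S42A. Slc25a23, a mitochondrial ATP-Mg carrier, fell by 2.07 ± 0.070. Aqp8, a water channel, read 5.36 to 6.04 in parental cells and rose to between 7.60 and 7.78 in Tw1KD; its S42A arrays (6.74 to 7.0) lay between. Slc37a2 fell, as did Slc9a3r2, which encodes a scaffold protein and not a transporter. Nipal4 and the magnesium channel Trpm6 were not called. Without Tw1KD replicate 2, Trpm6 passed at 0.36 (limma, adjusted p = 0.011).

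Transcription, RNA and DNA factors, 14 members, were all called on depletion, 8 lower and 6 higher. Calls were also made for 82% of all members and 36.3% of all genes. Dhx40, a DEAH-box helicase, read 9.52, 9.40 and 9.52 in parental cells, 9.27, 9.17 and 9.37 in Tw1KD, 8.50, 8.53 and 8.50 with wild-type Twist1, 5.87, 5.71 and 5.86 with S42A and 9.28, 9.30 and 9.30 with S42D. Only S42A was far off, and the fall on depletion of 0.21 ± 0.057 (limma, adjusted p = 0.0090) was lost after median centring (adjusted p = 0.062) and with the 2 compared lines fitted alone (adjusted p = 0.057). Ciart, a repressor of the circadian clock, read 8.35 to 8.47 in parental cells, 9.90 to 10.27 in Tw1KD and 6.14 to 6.99 in S42A, a rise of 1.71 ± 0.16 on depletion. A second Ciart probe set gave a gap of 2.16, close to the 2.27 of the first.

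Cxxc5, a zinc-finger protein that restrains Wnt signalling, fell by 1.69 ± 0.057, and Sox5, an HMG-box factor, by 1.07 ± 0.078. Egr1, an immediate early factor, read 9.67 to 9.72 in parental cells, 9.03 to 9.19 in Tw1KD, 9.42 to 9.46 with wild-type Twist1, 8.02 to 8.11 with S42A and 9.69 to 9.81 with S42D. Pold4, a DNA polymerase delta subunit, rose by 1.12 ± 0.046, and Nupr1, a stress-induced nuclear protein, by 0.51 ± 0.045. Mbd1, Eif5a2 and Eif4a2 rose by under 0.5, and Exo5, Rnu3a, Mecom and Zfp251 fell by under 0.5; Eif4a2 and Rnu3a have near-identical copies. The call of Zfp251 was lost when any array but parental replicate 2 was left out, and that of Mecom without Tw1KD replicate 2, parental replicate 1 or parental replicate 3. Fitting the 2 compared lines alone also lost the calls of Mecom (limma, adjusted p = 0.072) and Zfp251 (0.092). That of Zfp251 was lost too after median centring (limma, adjusted p = 0.19) and with a replicate block (0.058). With the mean of all probe sets the difference of Mecom went from -0.34 to -0.097 (adjusted p = 0.39).

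Trafficking, motor and chaperone genes, 6 members, had the smallest median gap of the roles (1.17). Ston2, an endocytic adaptor, fell by 0.74 ± 0.097 and read 6.40 to 6.86 in S42A. Kif21b, a kinesin, and Ift27, of intraflagellar transport, fell, Porcn, which lipidates Wnt proteins, and Dnaja4, a co-chaperone, rose, and Rims2 was not called but passed without Tw1KD replicate 3 (-0.36, adjusted p = 0.0011). The call of Ift27 was lost without parental replicate 1 or 3 and without Tw1KD replicate 1 or 2. Median centring (limma, adjusted p = 0.11) and quantile normalization (0.092) also lost it.

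**Figure D5:**
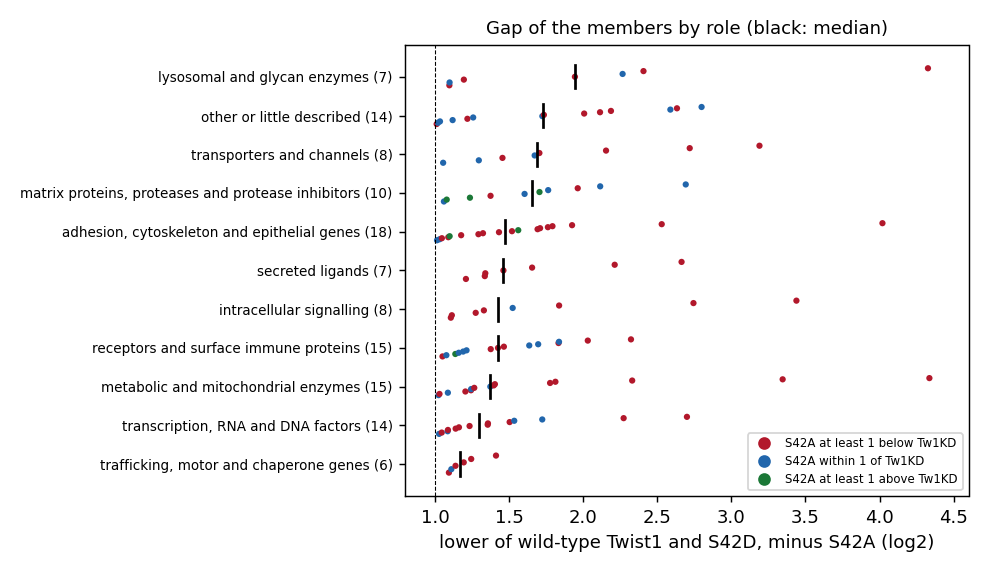
Gap (lower of the wild-type Twist1 and S42D means, minus the S42A mean, log2) of each member, grouped by role with the number of genes in brackets; black bars are medians, and the dashed line is the threshold of 1. Colours show whether S42A was at least 1 below, within 1 of or at least 1 above Tw1KD. Matrix and protease genes hold 3 of the 6 genes above Tw1KD. All 7 genes of the role labelled secreted ligands, some of them membrane-bound, are below it.

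The 14 other or little-described members included those with the largest fall and the largest rise. Gpm6b, a neuronal membrane proteolipid, read 10.08, 10.04 and 10.16 in parental cells, 6.10, 6.21 and 6.07 in Tw1KD, 10.16, 10.26 and 10.27 with wild-type Twist1, 6.37, 6.33 and 6.12 with S42A and 7.39, 7.39 and 7.39 with S42D. It fell by 3.97 ± 0.063 (limma, adjusted p = 3.1e-14). Wild-type Twist1 was near parental cells, S42A near Tw1KD and S42D 2.84 ± 0.063 below wild-type Twist1. Its S42D arrays held identical values, as did those of Hacd4 in S42D and Ptpn22 with wild-type Twist1, 3 of 610 sets of member and line.

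Mest, an imprinted hydrolase-like gene, read 8.54, 8.50 and 8.53 in parental cells, 5.76, 5.79 and 5.78 in Tw1KD, 9.19, 9.08 and 9.11 with wild-type Twist1, 5.67, 5.69 and 5.49 with S42A and 8.35, 8.11 and 8.16 with S42D. It fell by 2.75 ± 0.063 (limma, adjusted p = 5.8e-13), and S42A lay just below Tw1KD. Fam169a, a little-described gene, fell by 1.81 ± 0.073 and read 5.11 to 5.42 in S42A, against 8.04 to 8.12 with wild-type Twist1 and 8.77 to 8.81 with S42D. Glipr1, of a secreted and membrane protein family, fell by 1.84 ± 0.056. S100a16, an EF-hand calcium-binding protein, read 7.95 to 8.22 in parental cells and 10.43 to 10.63 in Tw1KD, a rise of 2.41 ± 0.11 (limma, adjusted p = 6.2e-10). Its S42A arrays, at 8.06 to 8.55, overlapped parental cells.

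Tmem223, of mitochondria, read 8.02 to 8.20 in S42A and 10.69 to 11.78 elsewhere, and fell on depletion by 0.45 ± 0.056. Fam110c rose by 1.25 ± 0.074 and Samd12 by 0.31 ± 0.068, and Etl4 was not called, at 6.87 to 7.26 in S42A and 9.04 to 9.39 elsewhere. Ociad2 and the predicted genes Gm5486 and Gm10419, which have near-identical copies, fell, and Ccdc125 and Tmem62 rose. With the mean of all probe sets the fall of Gm5486 went from 0.47 to 0.22 and was not called (limma, adjusted p = 0.13). The call of Ociad2 was lost without parental replicate 1 or 3 or Tw1KD replicate 1 or 2. That of Tmem62 was lost without parental replicate 2 or Tw1KD replicate 1 or 3, and that of Ccdc125 without any array but Tw1KD replicate 2. Fitting the 2 compared lines alone also lost Tmem62 (limma, adjusted p = 0.13), and a replicate block lost Ccdc125 (0.055).

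S42D and wild-type Twist1, both of which the rule requires to be high, were not level among the members. S42D was above wild-type Twist1 in 77 of 122, a count from arrays of the rule whose share over all genes was not worked out. The median of S42D minus wild-type Twist1 was 0.19 over the members and 0.010 over all genes. S42D was at least 1 above wild-type Twist1 in 23 (18.9%, against 3.21% of all genes) and at least 1 below in 6 (4.92%, against 1.62%). The largest excess was in Sema7a (3.18), Pdgfrb (2.62), St3gal6 (2.48), Perp and Ociad2 (both 2.18). In the other direction stood Gpm6b (-2.84), Hacd4 (-1.59), Gm10419 (-1.33), Acsbg1 (-1.24), Trpm6 (-1.14) and Rnu3a (-1.08).

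Of 16 lists of genes of known function, 9 held 1 or 2 members each and the others held none. Any list of 48 or fewer measured genes that holds a member exceeds the 0.612% of all genes. The shares of 2.08% to 5.13% in the 9 lists are thus set by list length, rest on single genes and were not tested. Epithelial junctions and keratins held 1 of 48 (Perp; Cdh1 and Krt19 had been set aside), epithelial identity regulators 1 of 32 (Grhl2), mesenchymal markers 1 of 32 (Pdgfrb), the TGF-beta pathway 1 of 44 (Bmp7), matrix proteases and inhibitors 1 of 37 (Plat; Mmp9 was set aside), other matrix proteins 1 of 44 (Matn2), cytokines 1 of 46 (Il23a; Cxcl16 was set aside), guidance factors 1 of 34 (Sema7a) and adhesion and integrins 2 of 39 (Itgb7 and Itga7). No member came from the 23 EMT transcription factors, 38 PI3K-Akt components, 31 interferon genes, 31 cell cycle genes, 28 hypoxia and glycolysis genes (Aldoc was set aside), 26 lipid genes or 35 Wnt genes. On depletion 19.9% of all genes were called higher and 16.4% lower. In the junction and keratin list 25 of 48 rose and 2 fell (median 0.26). Of the 32 epithelial identity regulators 13 rose and 8 fell (median 0.029). Of the 32 mesenchymal markers 4 rose and 12 fell (median -0.068), of the 44 TGF-beta genes 5 rose and 16 fell (median -0.012), and of the 26 lipid genes 4 rose and 15 fell (median -0.37). Among the 38 PI3K-Akt components 11 rose and 13 fell (median -0.023), and among the 23 EMT factors 3 rose and 8 fell (median -0.047). Guidance factors gave 6 rises and 15 falls (median -0.11), and hypoxia and glycolysis genes 12 and 8 (0.057). Wnt genes gave 5 and 11 (-0.026), matrix proteases and inhibitors 9 and 13 (-0.087), and other matrix proteins 6 and 13 (-0.042). Counts were 10 and 9 for adhesion and integrins (-0.0073) and 11 and 10 for cell cycle genes (-0.042). They were 9 and 9 for both interferon genes (0.056) and cytokines (0.00011). In the 31 interferon genes S42A was the lowest of the 3 re-expressing lines in none. In the other lists that count ran from 3 of 26 lipid genes to 15 of 39 adhesion and integrin genes. The interferon list's median of S42A minus the lower of the 2 other lines was 1.38, against 0.069 to 0.47 in the other lists. These values use arrays of the rule, and the share over all genes was not worked out.

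Second probe sets, which the rule did not use, were present for 7 members. Those of Ciart and Pgap1 passed the same gap (2.16 and 1.12), those of Gm10419, Mecom, Lrrk2 and Gm5486 had gaps of 0.60, 0.48, 0.15 and 0.13, and that of Mid1ip1 was -0.027. By position, chromosome 15 held the most members, 15 of 752 measured genes (1.99%, against 0.612% of all genes). In number it was followed by chromosome 1 with 11 of 1126 (0.977%) and chromosome 9 with 10 of 1167 (0.857%). By share, chromosome 18 came second with 7 of 472 (1.48%). Only Acsbg1 and Dnaja4 were neighbours among measured genes, and 8 pairs, with 16 members, lay within 5 measured genes of each other, Parvb and Arhgap8 among them. The 10 measured neighbours of the largest-gap genes were mostly near 0 in the same measure. Around Bckdhb, the neighbours' S42A mean minus the mean of wild-type Twist1 and S42D had a median of -0.14 and a lowest value of -0.48 (Tpbg), against -4.36 for Bckdhb. For Hexa the neighbours' median was -0.054 and the lowest -0.47 (Bbs4), and for Parvb 0.060 and -1.48 (Arhgap8).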

How the data were processed

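The authors deposited log2 intensities for 34760 probe sets on each of 15 Affymetrix arrays. Per the labels' protocols, 100 ng of RNA (Qiagen RNeasy) was biotin-labelled through an Ambion WT kit. R 2.10.0 and the affy package are named in the submitters' processing notes; background correction and normalization are not given in the sources used here. Scaling between arrays removes changes common to all transcripts, and signals near background compress differences.

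Of the probe sets, 21640 carried 1 symbol, 1321 several and 11799 none; 21553 symbols were updated by gene number against GRCm38.p6. All 15 arrays were fitted together with 1 mean per line in limma 3.58.1 (R 4.3.3), with Benjamini-Hochberg adjustment over 19937 genes, 2-sided, at 0.05. The step was tested on simulated data. Only Tw1KD against parental was tested, since the choice of members used the other arrays. Precision is limited by having 3 arrays per line.

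The members and gene lists were chosen with earlier results of these data known. Genes named by a fixed rule are the 15 largest gaps and the 6 largest rises and 6 largest falls on depletion. The rule also takes up to 3 members per list, the genes at the threshold, Twist1 and members with a further probe set. The others are named to account for every member. Many of these, such as Cd74, Cmbl, Tlr2 and Egr1, are also given with values. Which of them to give in detail was chosen by hand with their values seen. Roles were assigned by hand. Alternatives changed the normalization, probe choice, dim filter, arrays fitted, array weights, replicate block and gap, and left out each array.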

Additional observations from a re-analysis of the deposited data

How the results depend on the processing

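Counts of members called on depletion moved little: 36 to 42 rose and 54 to 62 fell over all alternatives run, and without each array in turn 36 to 40 rose and 54 to 60 fell. Over all genes 3288 to 4644 rose and 2557 to 3733 fell. The share of calls that were rises went from 54.8% to 61.3% after median centring. Of the 100 called members, 88 were called under every alternative, 12 lost the call in at least 1, and 6 others gained it in at least 1 (Bckdhb, Lrrk2, Mcpt8, Rims2, Serpinb9b and Trpm6). The rule gave 55 genes at a gap of 1.5 and 166 at 0.8, 125 after median centring, 119 after quantile normalization, 120 with the mean of all probe sets, and 117 to 124 without each array in turn.

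The direction on depletion turned only in members that were not called in either setting. Quantile normalization gave -0.00093 for Etl4 and -0.025 for Vsir. Array weights gave -0.051 for Vsir, -0.015 for G6pc3, -0.020 for Nckap1l and -0.0013 for Nipal4. Without each array in turn the difference ran from -0.025 to 0.075 for Etl4, from -0.028 to 0.043 for Vsir, from -0.052 to 0.049 for G6pc3, from -0.099 to 0.095 for Nckap1l and from -0.35 to 0.072 for Olfr266. The causes were not tested.

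Over all lines, same-numbered arrays correlated in their deviations at r from -0.39 to 0.417 (30 pairs, 7 over 0.1, and 0 arrays correlating best with their own number). Between parental and Tw1KD cells r was 0.015, 0.394 and 0.417 for numbers 1, 2 and 3, so 2 of the 3 pairs there deviated together and the other did not. Since not every pair exceeded 0.1, the numbers were not taken to pair the samples. With a replicate block 38 members rose and 59 fell, and 3866 and 3180 of all genes.

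Signal over background limits the members in the dimmest 25% of group means, 7 in S42A and 9 in Tw1KD, where a dim transcript cannot be told from background. In S42A they were Gstm5, Olfr266, Hacd4, Perp, Fam169a, Ptpn22 and Ociad2. In Tw1KD they were Hacd4, Gm5486, Olfr266, Grpr, Pcdhb21, Mcpt8, Serpinb8, Gcnt1 and Fam169a. Where such a line is set against a brighter line, the difference is read as a lower bound for the transcript.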
